A study of Homo sapiens with 10 samples.

Results

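The sites described here were 512 stretches of 5-methylcytosine (m5C) in polyadenylated RNA of MCF-10A that lay at another place of a gene marked in both breast lines. They were found by comparing a list of 5194 m5C sites in MCF-10A, breast epithelial cells that form no tumours, with a list of 8320 sites in MDA-468, a human breast cancer line. A site entered the group when its exon blocks shared no base with an MDA-468 site on the same strand while its gene did hold an MDA-468 site. The 512 extra sites, as they are called here, made up 9.86% of the MCF-10A list and stood in 434 genes. The other MCF-10A sites were 3857 that overlapped an MDA-468 site, 736 in genes with no MDA-468 site, and 89 without overlap and without a gene identifier. The extra sites were chosen by the authors' site calls in both lists, so their absence from the MDA-468 list is the rule and not a result, and everything below is description without a test.

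Sites came from MeRIP-seq (immunoprecipitation of methylated RNA, then sequencing), in which RNA fragments held by an antibody against m5C are compared with the input RNA. The 10 libraries of untreated cells formed 5 groups of 2 by their titles, namely MeRIP of each line, input of each line, and repeat MeRIP libraries of MCF-10A titled as technical replicates, so MCF-10A had more MeRIP libraries. RNA was selected for poly(A) and fragmented before the pull-down. The culture description, which names MDA-MB-468, was the same for every sample, and no label says whether replicates were separate cultures. The deposited files hold 1 merged list per line, together with a table of differential sites. No value per library was used, so no value below has a replicate error, sequencing depth is unknown, and a site missing from a list is not shown to be unmethylated. Markers of each line could not be checked, since transcript levels were not analysed here.

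In mRNA, m5C is placed by the methyltransferase NSUN2 and its relatives and is bound by proteins such as ALYREF, an export factor, and YBX1, which acts on mRNA stability. An antibody holds fragments and not single cytosines, so each site is a stretch within which the modified base is not known.

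The genes with extra sites fell into those that also shared a site with MDA-468 and those that shared none. In 328 of the 434 genes (75.6%, exact Clopper-Pearson 95% interval 71.2 to 79.6) another MCF-10A site overlapped an MDA-468 site, and these genes held 399 extra sites. In the other 106 genes, with 113 extra sites, each line had its own sites and none coincided. These 106 are by construction all genes marked in both lines without a shared site, 3.53% of 3004. All intervals given here cover the counting of sites or genes only.

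The longest transcripts of both kinds of genes were compared in GENCODE release 29, on GRCh38. Their median GC content was 45.1% (interquartile range 41.1 to 50.5) in 306 genes with extra and shared sites and 51.1% (45.8 to 57.2) in 102 genes with extra sites alone. It was 46.1% in 2469 genes marked in both lines without an extra site, 46.8% in 679 genes marked in MCF-10A only and 56.0% in 2209 genes marked in MDA-468 only. The median transcript length was 5289 nt (3830 to 7508) in genes with extra and shared sites and 4706 nt (3061 to 6476) in genes with extra sites alone, against 4181 nt in genes marked in both without an extra site. The interquartile ranges of the 2 kinds overlapped for both measures.

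Genes with more shared sites more often held an extra site as well. Of genes marked in both lines, 14.4% held an extra site. The share was 9.18% of 2299 genes with 1 shared MCF-10A site, 15.1% of 444 genes with 2, 23.5% of 98 genes with 3, and 47.4% of 57 genes with 4 or more. An extra site in MDA-468 stood in 68 of 328 genes with extra and shared MCF-10A sites (20.7%, 16.5 to 25.5) and in 340 of 2570 genes marked in both without an extra MCF-10A site (13.2%, 11.9 to 14.6). Most genes, 373 of 434, held a single extra site, while 49 held 2, 7 held 3 and 5 held 4.

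Most extra sites stood within 1 kb of an MDA-468 site of the same gene, and most of those with another MCF-10A site in the gene stood within 1 kb of it. The genomic distance, introns included, to the nearest MDA-468 site of the gene had a median of 834 nt (exact 95% interval of the median 718 to 984, n = 512) and an interquartile range of 327 to 2409 nt. It was at most 1 kb for 285 sites (55.7%), at most 100 nt for 29 and over 10 kb for 69 (13.5%). In genes with a shared site the median was 745 nt (628 to 868), and in genes without one 1525 nt (1010 to 3384). The nearest MDA-468 site lay upstream of the extra site in 274 cases (53.5%, 49.1 to 57.9) and downstream in 238. Extra sites were the most 3′ site of their gene over both lists in 208 cases, the most 5′ in 170 and between others in 134. For 374 (73.0%) the nearest MDA-468 site was one shared with another MCF-10A site. For the 412 extra sites with another MCF-10A site in the gene, the median distance to it was 626 nt (538 to 716), and 64.6% lay within 1 kb. Nearness was thus not particular to MDA-468 sites.

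**Figure D1:**
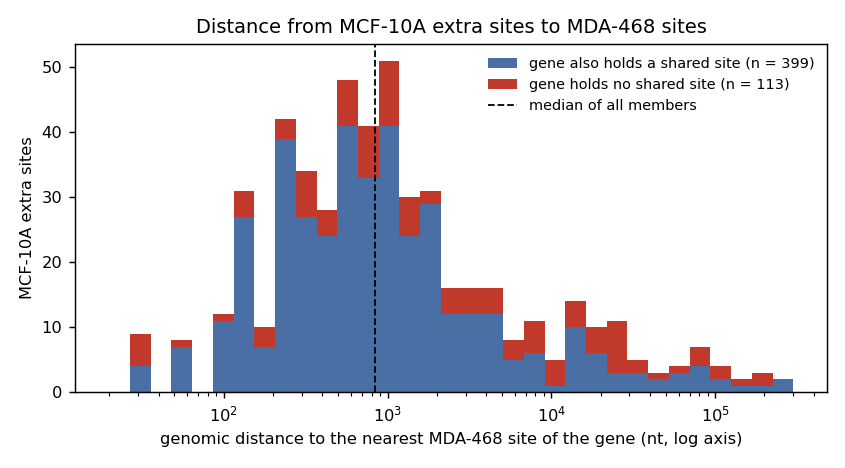
Number of MCF-10A extra sites (vertical axis) by genomic distance to the nearest MDA-468 site of the same gene in nt (horizontal log axis), stacked by whether the gene also holds a shared site. The dashed line marks the median of 834 nt, and genes without a shared site hold 31 of the 69 sites beyond 10 kb.

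Site lengths followed a fixed step, and distances did so less often. Of the 512 lengths, 509 lay between 2 nt below and 1 nt above a multiple of 30 nt. Of 285 distances under 1 kb, 197 (69.1%) lay within the same margin of such a multiple, and the shortest were 28 and 29 nt, at 9 sites. LINC00987, a long noncoding RNA gene, had an extra site 28 nt from an MDA-468 site, at 9392688 to 9392748 of chromosome 12 (all coordinates are hg19, counted from 1). GLG1, which encodes a Golgi glycoprotein, the pseudogenes LOC442132 and CTSLP2, and MICB, which encodes a ligand of the natural killer receptor NKG2D, followed at 29 nt. Just on the other side of the rule, BEND3P3, HOXC11 and TAF15 had MCF-10A sites that counted as shared with an overlap of 1 bp, and 17 of 3857 shared sites overlapped by under 30 bp.

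By genomic distance, introns included, a few extra sites lay far from any MDA-468 site of their gene. In ATG10, an autophagy gene, the extra site was 278168 nt downstream of the nearest MDA-468 site, at 81550288 to 81550348 of chromosome 5. RIPOR2 (235792 nt), the phosphatase and actin regulator gene PHACTR1 (219992 nt), REXO1L1P (213758 nt) and the proprotein convertase gene PCSK5 (185839 nt) came next. These distances exceed the longest transcripts of the genes, 3033 nt (ATG10), 5678 nt (RIPOR2), 5332 nt (PHACTR1), 6598 nt (REXO1L1P) and 9538 nt (PCSK5). They are therefore not distances along the spliced RNA. REXO1L1P is a pseudogene of a repeated family, so the placement of its reads is uncertain.

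Extra sites were shorter than shared sites and had larger p-values. Their median length was 151 nt (151 to 179), with a range of 60 to 479 nt, against 328 nt (301 to 329) at shared MCF-10A sites. The median of -log10 of the authors' site p-value was 18.8 (18.2 to 20.2) at extra sites and 76.9 (74.3 to 79.6) at shared sites. Sites in genes without an MDA-468 site had a median length of 150 nt and a median -log10 p of 17.9 (17.2 to 19.2), values close to those of extra sites. Lengths over 300 nt occurred in 6.64% of extra sites and 53.5% of shared sites. A long site has more chance to meet another, so length and the rule are not independent.

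The same held within genes. In the 328 genes with both kinds, shared MCF-10A sites had a median length of 328 nt and a median -log10 p of 65.4, and the extra sites 151 nt and a median authors' p-value of 1e-20. Of the 399 extra sites in these genes, 371 (93.0%) had a larger p-value than the best shared site of the gene. Where a gene held several shared sites, only the smallest p-value was taken, which favours the shared side. Shared sites also had to be called in both lists, so p-value and the rule are not independent either. The extra sites covered 86.5 kb of exons, against 1239 kb for the shared sites. Exon junctions were spanned by 7.62% of extra sites (5.47 to 10.3), by 7.03% of shared sites and by 14.9% of MCF-10A sites in genes without an MDA-468 site (12.4 to 17.7).

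**Figure D2:**
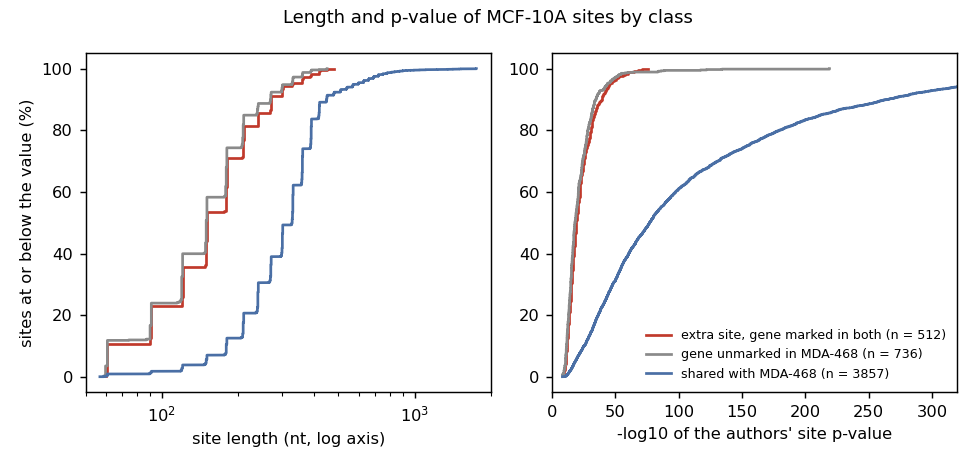
Share of MCF-10A sites (vertical axis, percent) at or below a given length in nt (left, log axis) or -log10 of the authors' p-value (right), for extra sites, sites in genes unmarked in MDA-468 and shared sites. The curves of extra sites and of sites in unmarked genes lie close together, with medians of 151 and 150 nt, and shared sites lie to the right with 328 nt.

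The strongest extra sites reached the range of shared ones. The smallest authors' p-value, 1e-76, belonged to a 270-nt site of the pseudogene LOC100131257, at 7123556 to 7123825 of chromosome 7. SAMD5 followed with 2.5e-71, at 147886512 to 147886872 of chromosome 6, then the zinc finger gene ZNF562 with 3.2e-68 over 420 nt, the microtubule-associated MAP7D3 with 6.3e-67 and PRELP, which encodes a matrix proteoglycan, with 3.2e-65. BAIAP2-DT (1.6e-61), NFAT5 (1.3e-60), which encodes a transcription factor of the response to osmotic stress, TSIX (2e-60), an unnamed gene on chromosome 10 (1e-58) and FAM86B2-DT (4e-58) completed the first 10. At NFAT5 the nearest MDA-468 site, 4585 nt upstream, had an authors' p-value of 9.1e-09, and at SAMD5 the nearest was 3235 nt downstream with 2.5e-16. The longest extra site, 479 nt, stood in RBM8A, which encodes an exon junction complex protein, followed by SHISA9 with 451 nt.

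Genes with the most extra sites mostly held several shared sites too. GK5, a gene of the glycerol kinase family, held 4 extra and 4 shared MCF-10A sites against 4 sites in MDA-468, all shared. Its extra sites had authors' p-values of 1.3e-45, 2e-21, 4e-13 and 2.5e-12, and the last lay 21833 nt on the genome from any MDA-468 site of the gene. ENTPD1, which encodes the ectonucleotidase CD39, held 4 extra sites and 2 shared ones, and MDA-468 had only the 2 shared ones there. Its antisense gene ENTPD1-AS1 was listed with 1 extra and 1 shared MCF-10A site of its own. TNRC6B, a scaffold of microRNA-mediated silencing, had 4 extra sites between 40719731 and 40731272 of chromosome 22 and a single shared site, and MDA-468 had 2 extra sites of its own there. In DNAL1 and FAM227A, 3 extra sites each stood beside 4 and 2 shared sites.

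TOR1AIP2, whose product activates torsin ATPases, held 3 extra and 6 shared MCF-10A sites, and the adaptor gene SH3BP2 held 3 extra sites and 1 shared. TSIX, the antisense gene of X inactivation, had 3 extra and 17 shared MCF-10A sites. Whether counting used the strand is not given in the sources used here, so reads of TSIX, ENTPD1 and their partners on the other strand cannot be told apart. The pseudogenes LOC100131257 (4 extra, 10 shared) and ANKRD20A9P (4 extra, 9 shared) resemble other loci, and their sites are uncertain. Of all extra sites, 11 overlapped an MCF-10A site listed under another gene, such as ZNF321P and ZNF816-ZNF321P at 53431341 to 53431614 of chromosome 19, so these are not separate places.

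Regulators of p53 and genes of DNA repair held extra sites beside shared ones. Of 9 genes of the p53 and DNA damage list that were marked in both lines, 4 held an extra site (44.4%, 13.7 to 78.8), beside 14.4% of all genes marked in both, which lies within the interval. MDM4, an inhibitor of p53, had 3 extra sites on chromosome 1, at 204519404 to 204519584, 204520123 to 204520303 and 204554826 to 204554916, with authors' p-values of 2e-20, 7.9e-22 and 2.5e-15. Its 5 shared MCF-10A sites reached 1e-235, and MDA-468 had 2 extra sites of its own in the gene. MDM2, which encodes the ubiquitin ligase that degrades p53, had 1 extra site at 69238542 to 69238662 of chromosome 12 (6.3e-21), beyond 2 shared sites that ended at 69234624. Both genes thus held common sites and, at the 5′ or 3′ side of these, sites listed in MCF-10A alone.

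POLH, which encodes a polymerase that copies past ultraviolet lesions, had a 151-nt extra site (7.9e-19) 149 nt from the nearest MDA-468 site, between shared sites on either side. FANCD2, a gene of DNA crosslink repair, had a 270-nt extra site at 10143075 to 10143344 of chromosome 3 (1.6e-49). By genomic distance, an intron included, it lay 1736 nt from the MDA-468 site. The shared MCF-10A site over that MDA-468 site spanned an exon junction and ended at 10142895. All 4 genes held a shared site too, as did 75.6% of all genes with an extra site.

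Of 9 apoptosis genes marked in both, 3 held an extra site (33.3%, 7.48 to 70.1), an interval that includes the 14.4% of all genes marked in both, and all 3 held a shared site too. CASP10, which encodes an initiator caspase of death receptors, had 2 extra sites at 202083031 to 202083957 of chromosome 2 (1.6e-16 and 6.3e-35), upstream of a shared site of 420 nt that had the same ends in both lines. CFLAR, which encodes an inhibitor of caspase-8, had a 91-nt extra site (7.9e-17) among 7 shared ones. XIAP, which encodes an inhibitor of caspases, had a 181-nt extra site (6.3e-25) downstream of 3 shared sites. In XIAP the first shared site had an authors' p-value of 2.5e-56 in MCF-10A and 1e-05 in MDA-468, where the site was 61 nt long.

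Of 11 interferon and double-stranded RNA sensing genes marked in both, 3 held an extra site (27.3%, 6.02 to 61.0), and this interval also includes 14.4%. MAVS, which encodes the mitochondrial adaptor of RNA sensors, had 2 extra sites, at 3848977 to 3849127 and 3849427 to 3849547 of chromosome 20 (6.3e-25 and 5.6e-10), upstream of 4 shared sites. IFNAR1, which encodes a chain of the type I interferon receptor, had 1 extra site of 210 nt (5e-28) beside 1 shared site. ZC3HAV1, which encodes an antiviral protein that binds CpG-rich RNA, had 1 extra site of 181 nt (5e-31), and the shared site of 390 nt had the same ends in both lines.

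**Figure D3:**
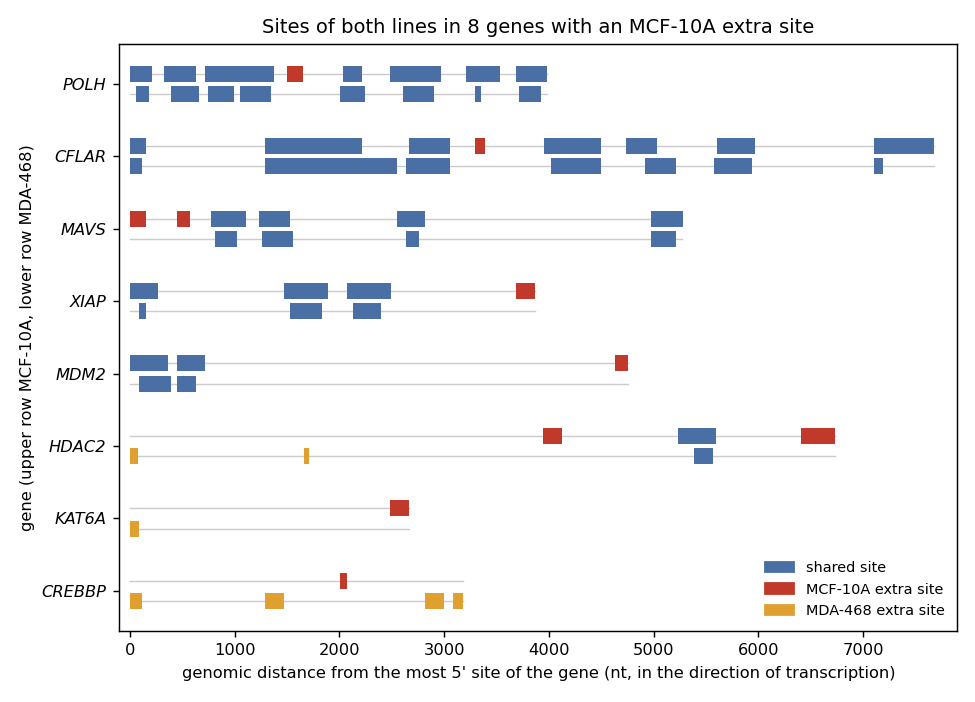
Sites of both lines in 8 genes with an MCF-10A extra site, drawn to scale as exon blocks by genomic distance in nt from the most 5′ site of the gene, in the direction of transcription. The upper row of each gene is MCF-10A and the lower MDA-468. In the first 6 genes extra sites stand beside shared ones, and in KAT6A and CREBBP no site coincides.

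Most chromatin regulators with an extra site had no site common to the lines. Of 9 chromatin regulators marked in both lines, 6 held an extra site (66.7%, 29.9 to 92.5), beside 14.4% of all genes marked in both. In 5 of these 6 no site was shared, beside 24.4% of all genes with an extra site (106 of 434). A gene marked in both lines without a shared site holds an extra site by construction. The share with an extra site and the share without a shared site are thus not separate results. Of 21 lists with at least 4 genes marked in both, chromatin regulators had the largest share with an extra site. The longest transcripts of the 6 genes ran from 9254 nt (KAT6A) to 19419 nt (KMT2D). The median was 4181 nt in genes marked in both without an extra site. Whether the share goes with transcript length was not tested. CREBBP, which encodes a histone acetyltransferase, had a 61-nt MCF-10A site at 3777335 to 3777395 of chromosome 16 (2e-19) between 4 MDA-468 sites of 91 to 181 nt. KMT2A and KMT2D encode methyltransferases of lysine 4 of histone H3. KMT2A had an MCF-10A site at 118396520 to 118396670 of chromosome 11 (4e-21) and an MDA-468 site close by at 118396070 to 118396340 (3.2e-15). KMT2D had an MCF-10A site at 49413477 to 49413717 of chromosome 12 (6.3e-41), by genomic distance 20462 nt from the nearest of 2 MDA-468 sites.

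DNMT3A, which encodes a DNA methyltransferase, had 1 site in each line, 80253 nt apart on the genome. KAT6A, which encodes another histone acetyltransferase, had 1 in each line, 2394 nt apart. HDAC2, which encodes a histone deacetylase, was the exception in the list, with 2 extra sites (1.3e-22 and 7.9e-26) and 1 shared site.

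A few other genes without a shared site are given as examples, chosen after their values were seen. VDR, which encodes the vitamin D receptor, had the smallest authors' p-value of an extra site in such genes, 1.6e-53, at 48236276 to 48236545 of chromosome 12, 536 nt from its MDA-468 site (8.3e-10). SOX9 had its extra site 118 nt from an MDA-468 site, with authors' p-values of 4e-23 and 6.3e-28. The homeobox genes LHX9 (5e-31) and ZFHX3 (1e-22 for its best site) also had separate sites, at genomic distances of 9869 and 1169 nt. RPL13, a ribosomal protein gene, had a 91-nt site in MCF-10A and a 121-nt site in MDA-468.

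In other written lists 1 gene each held an extra site. Of genes marked in both, it was 1 of 2 m6A proteins (METTL16) and 1 of 7 translation factors (EIF2S3). ERBB3 was 1 of 2 luminal and epithelial genes and 1 of 9 EGFR, RAS and PI3K signalling genes. The intervals of these shares all include the 14.4% of all genes marked in both. METTL16, which encodes an m6A methyltransferase, had an extra site of 180 nt (2.5e-40) beside a shared site, ERBB3, the gene of an EGFR family receptor, had one of 151 nt (1.6e-17), and EIF2S3, which encodes a subunit of initiation factor eIF2, had one of 150 nt (1.6e-24). No extra site stood in the genes marked in both of 8 written lists. Among them were cell cycle and replication (0 of 11, interval 0 to 28.5%) and the nuclear-encoded respiratory chain (0 of 8, 0 to 36.9). Others were cholesterol and fatty acid synthesis (0 of 7, 0 to 41.0) and the m5C enzymes and binding proteins (0 of 2, 0 to 84.2). All these intervals include the 14.4% of all genes marked in both, so the zeros do not show that these lists lack extra sites. The short lists of markers of cells the cultures should lack held none either, with 0 of 4 blood cell genes (0 to 60.2) and 0 of 1 stromal genes (0 to 97.5). These intervals also include 14.4%, and the zeros concern the listed genes only. Outside these lists, the chemokine gene CCL22 and CLEC7A, for example, each held 1 extra site.

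Of families matched by symbol, zinc finger genes held an extra site in 27 of 143 genes marked in both (18.9%, 12.8 to 26.3), an interval that includes the 14.4% of all genes marked in both. The share was 4 of 17 for RAB GTPases and their TBC1D regulators (23.5%, 6.81 to 49.9) and 2 of 9 for cytosolic ribosomal proteins (22.2%, 2.81 to 60.01). Long intergenic and antisense RNAs held an extra site in 38 of 224 (17.0%, 12.3 to 22.5), solute carriers in 6 of 65, and TRIM, RNF and F-box ligase genes in 5 of 40. Chromosome 19, where many zinc finger genes lie, held 10.5% of extra sites (8.02 to 13.5) and 9.70% of shared sites. By gene type, 80.4% of extra sites with a named gene stood in protein-coding genes and 11.7% in long noncoding RNA genes, against 82.7% and 11.3% of shared sites.

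**Figure D4:**
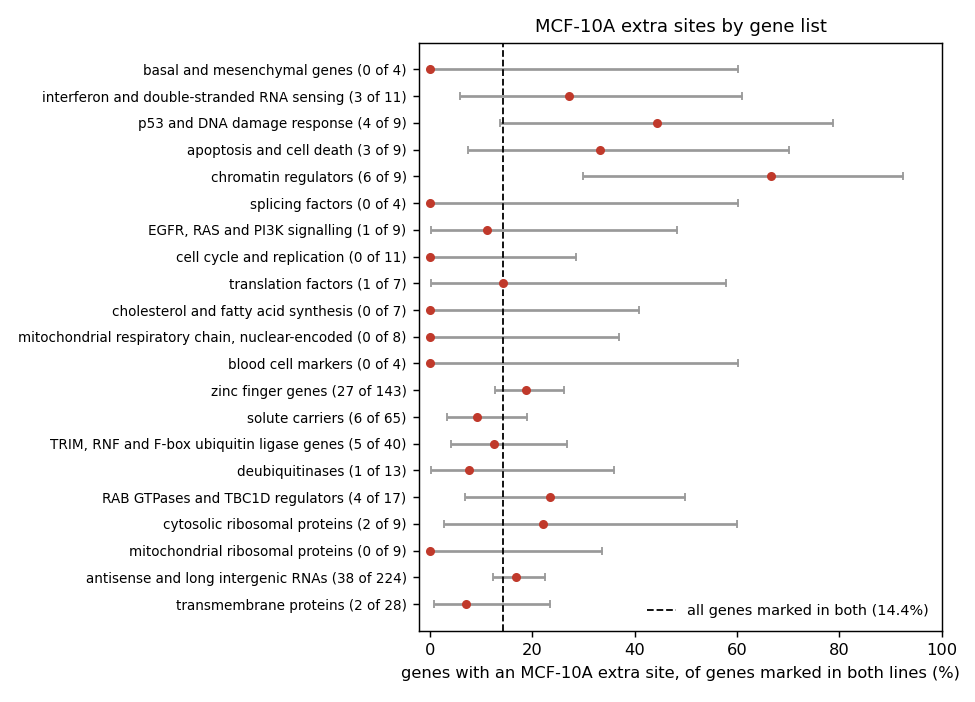
Share of genes marked in both lines that held an MCF-10A extra site (horizontal axis, percent, with exact 95% intervals) for 21 gene lists with at least 4 genes marked in both, with counts in the labels. The dashed line is the 14.4% of all genes marked in both, and chromatin regulators have the largest share with 6 of 9. Of these 6, 5 have no shared site and so hold an extra site by construction.

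The authors' own comparison of the lines listed a minority of the extra sites. In the authors' deposited table, 82 extra sites (16.0%, 13.0 to 19.5) lay on a site higher in MCF-10A, beside 28.7% of all MCF-10A sites, and 1 lay on a site higher in MDA-468, beside 0.481%. The share was 34.3% of shared MCF-10A sites and 9.10% of those in genes without an MDA-468 site. The same contrast underlies the rule, so these counts are given without a reading. The other 429 extra sites were on no site of that table, and for these a difference between the lines was not listed by the authors.

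Many of those overlaps joined the extra site to an MDA-468 site. Differential sites in the authors' deposited table were longer than sites of the lists, and for 41 of 83 extra sites the differential site also covered an MDA-468 site. Among differential sites over both, the 40 higher in MCF-10A had, in the authors' deposited table, a log2 fold change of -1.68 at the median and a median length of 1164 nt, so their values are not of the extra site alone. The 39 that covered an extra site and no MDA-468 site had a median of -2.67 (interquartile range -3.68 to -2.20) and a median fold enrichment of MeRIP over input of 9.22 in the authors' deposited table. Over shared MCF-10A sites, 1220 differential sites higher in MCF-10A had medians of -1.91 and 24.6 in the authors' deposited table. These groups were formed by whether an MDA-468 site was called, so differences between their medians are given without a reading.

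The lowest log2 fold change at an extra site in the authors' deposited table was -7.33, in the pseudogene ANKRD20A9P. ACKR2, which encodes a scavenging chemokine receptor, had -6.32 and -4.29 at its 2 extra sites, on either side of a shared site of 479 nt, in the authors' deposited table. CCL22, a chemokine gene, had -5.94, and RBM47, which encodes an RNA-binding protein, had -5.91 with a fold enrichment over input of 2.93, in the authors' deposited table. CASZ1 (-4.95) and AQP7P1 (-4.73) came next in the authors' deposited table.

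Of the genes in the written lists, families by symbol aside, ERBB3 (-4.17), DNMT3A (-2.97), HDAC2 (-2.90), EIF2S3 (-1.46) and POLH (-1.34) had a differential site over an extra site in the authors' deposited table. At POLH that differential site covered an MDA-468 site as well. The single extra site under a differential site higher in MDA-468 was that of TLR8-AS1, an antisense RNA gene, with 1.84 in the authors' deposited table. That differential site also covered the MDA-468 site 29 nt away, whose authors' p-value was 2.5e-91.

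**Figure D5:**
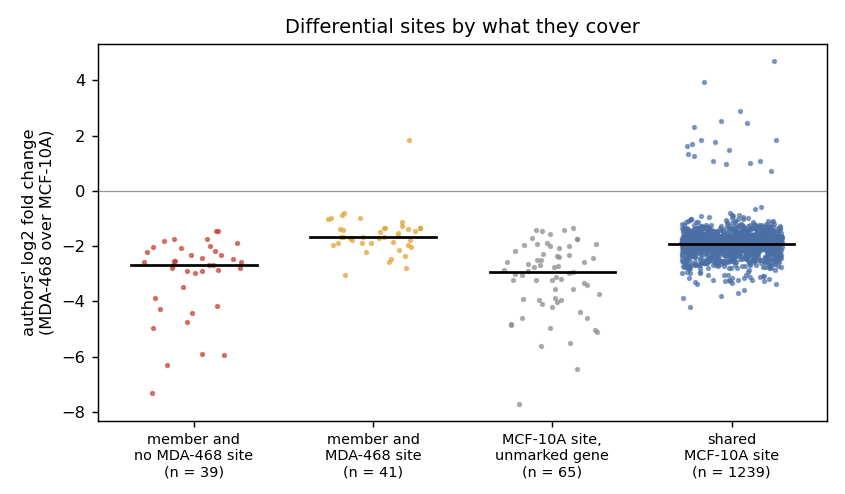
Log2 fold change of MDA-468 over MCF-10A in the authors' deposited table (vertical axis) for differential sites that cover an extra site without an MDA-468 site, an extra site with an MDA-468 site, an MCF-10A site in an unmarked gene, or a shared MCF-10A site. A differential site that covers several kinds is drawn in each, and bars are medians of the sites higher in MCF-10A, -2.67, -1.68, -2.93 and -1.91 from left to right. The groups were formed by the site calls of both lists, so these medians are given without a reading.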

How the data were processed

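Each list gave m5C sites with exon blocks, an Entrez gene identifier and the authors' p-value, written as 0 for some shared sites. The submitters' processing notes name TopHat and the build hg19. Per the file headers, differential sites came from Tophat2 alignments and exomePeak with UCSC known genes. How a site was judged consistent, and whether replicates were pooled, is not given in the sources used here. The differential table held a fold enrichment, a ratio computed by the authors, the authors' log2 fold change, and log10 columns for significance, treated as a score and kept as deposited. Its title line and its name give opposite directions. Of 389 sites with a positive log2 fold change, 381 overlapped an MDA-468 site and 19 an MCF-10A site, so positive was read as higher in MDA-468.

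Sites were compared by exon blocks on the same strand with a minimum overlap of 1 bp, in Python 3.11.15 (with scipy 1.17.1, numpy 2.4.6, matplotlib 3.10.9 and pandas 2.3.3). bedtools 2.31.1 found the same 3857 shared sites. On 2000 simulated sites built from the same rule, 100% were put in the right class, which checks the code and not the site calls. Shares carry exact Clopper-Pearson 95% intervals and medians exact binomial ones. No test was made, since no value per library was at hand and sites are not replicates. Genes were named through a RefSeq gene table (429 of 434). Transcripts were the longest per gene in GENCODE 29, found for 408 of 434. Gene families were matched by symbol, with patterns narrowed after the matches were seen.

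Named genes were those with the most extra sites, the smallest p-values, the largest log2 fold changes, the extremes of distance and length, and members of the gene lists, plus a few genes chosen after their values were seen, as said there. Some items that meet this rule are not reported here. The sites and lists were chosen with earlier results of these data known.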

Additional observations from a re-analysis of the deposited data

How the results depend on the processing

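The number of extra sites and 5 summaries (median distance, length and -log10 p, the share whose gene holds a shared site, the share over a differential site) were recomputed under 7 alternatives. Of these 42 values, 33 stayed close to the first and 9 moved. The number of extra sites, 512, was 578 when 25% of the MCF-10A site had to be covered, 483 when sites within 100 nt counted as shared, 511 with whole spans, 600 with MDA-468 sites limited to p of 1e-08, and 240 with MCF-10A sites limited to p of 1e-20. With 25% coverage the median distance was 682 nt and the share of sites whose gene holds a shared site 72.5%. With the MDA-468 limit the median length was 180 nt, the median -log10 p 20.8 and that share 81.7%, and 473 of the 512 sites remained. With the MCF-10A limit the median length was 210 nt, the median -log10 p 29 and the share over a differential site 21.7%. Overlap on either strand changed no value. No gene had sites on more than 1 chromosome or strand, so leaving such genes out could change none. Both settings count among the 33 values. No paired analysis was possible because the lists are merged over replicates, and for the same reason no replicate could be left out. Both p-values and the number of sites depend on depth, which is unknown.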
